A study of Canis lupus familiaris with 6 samples.

Results

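The genes described here are 5 structural genes of epithelial cell adhesion, namely CDH1, CTNNB1, DSG3, DSG1 and KRT19. They were chosen by name, with earlier results of these data known. Their probes are those whose target is a dog RefSeq transcript of 1 of the 5 genes. This gave 11 probes of 43584 and 5 genes of 1436 with a name on the array. CDH1 has 3 probes, CTNNB1 has 4, DSG1 has 2, and DSG3 and KRT19 have 1 each. Expression was measured on 6 single-colour Agilent arrays of MDCK-II cells, a dog kidney tubule line, called scribKD because they carry a hairpin RNA against the polarity scaffold gene scribble that tetracycline switches on. The arms were 5 µg/ml tetracycline, added 6 h after plating, and culture of the same scribKD cells without it, each sampled at 30, 45 and 60 h. Each array holds the RNA of 3 wells mixed before labelling, so there is 1 array per arm and time and no replicate culture. Every group carries the hairpin construct and none is a parental line, so the hairpin and the drug itself cannot be told apart, and the labels do not say whether the line is a single clone. SCRIB has 0 named probes, so the depth of the knockdown was not analysed here.

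Epithelial cells are held together by adherens junctions and desmosomes. In an adherens junction the transmembrane protein E-cadherin, the product of CDH1, binds the same protein on the next cell, and its tail holds beta-catenin, the product of CTNNB1, which links it through alpha-catenin to actin and also acts as a transcriptional coactivator in Wnt signalling. Desmosomes use other cadherins, the desmogleins and desmocollins, whose tails bind plakoglobin and plakophilins and, through desmoplakin, the keratin filaments. Desmoglein 3 (DSG3) is best known from the lower layers of stratified epithelium and desmoglein 1 (DSG1) from the upper layers, and both are targets of autoantibodies in pemphigus. Keratin 19 (KRT19) is a small type I keratin of simple epithelia, kidney ducts among them.

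Between 64.3% and 68.8% of the 43803 non-control spots of an array lay well above background by the scanner program, 0 were saturated, and arrays correlated at 0.986 to 0.991. Of 12 markers of kidney tubule epithelium 5 have a named probe, and all 5 (CDH1, KRT19, CLDN2, OCLN and TJP1) were well above background on all 6 arrays. One of them, CLDN2, the claudin of leaky tubule junctions, had log2 differences, with minus without tetracycline, of 0.06, -0.38 and -1.64 at 30, 45 and 60 h. Its second probe had -0.09, -1.05 and -2.01. The limma adjusted p for the mean over the times was 0.329 on the brighter CLDN2 probe. OCLN had 0.11, 0.12 and 0.16, and the brighter TJP1 probe had -0.31, -0.34 and -0.13. At 60 h, on the brightest probe of each, 2 of the 5 markers, CDH1 and OCLN, were higher with tetracycline and 3 were lower. Of all probes tested, 49.7% were higher at 60 h. The second TJP1 probe went the other way from the brighter one there, at 0.23. Of 9 markers of stratified epithelium 4 have one: the basal keratin KRT14 and DSG3 were well above background on all 6 arrays, DSG1 on 1 and the suprabasal keratin KRT1 on 0. Of the fibroblast markers with a probe, 3 of 4 were well above background on all 6 arrays and DCN on 0. Both endothelial (VWF, KDR) and both leukocyte markers (CD4, CD8A) with a probe also gave signal on all 6. The summed level of the 3 fibroblast markers was 2.41 to 2.55 times the array's 75th percentile with tetracycline and 2.21 to 2.55 times without. Most of this sum came from the probe of COL1A2, at log2 levels of 0.99 to 1.22. COL1A1 lay at -3.70 to -2.84 and PDGFRB at -3.01 to -2.78, so the sum says little about these. Within that sum the collagen gene COL1A1 had differences of 0.26, 0.70 and 0.82 on the 1 of its 4 probes well above background (limma, unadjusted p = 0.00891, adjusted p = 0.135). The part of other cell types in the results was not tested.

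The comparison of the arms asks how induction of the hairpin bears on these transcripts, and whether the difference moves with time. Of the 4 of these genes that entered the test, DSG3 had the largest difference. DSG3 was 4.40-fold higher with tetracycline at 60 h, with the sign opposite at 30 h. CDH1 was 1.38- to 1.42-fold higher at 60 h on its 3 probes and close to the other arm before. CTNNB1 was slightly lower with tetracycline from 45 h on all 4 probes. KRT19 was lower with tetracycline at each time, and DSG1 was at background on all arrays but 1. None of these differences passed an adjusted p of 0.05. At 45 h the array without tetracycline lay on slide 1 and the array with it on slide 2. Arm and slide therefore cannot be told apart in any difference at 45 h. In RNA from a whole culture, fewer cells with a transcript and less of it per cell cannot be told apart.

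Levels are given as multiples of the 75th percentile of the processed signal over the probes of the same array, and differences as log2, with minus without tetracycline. Probes differ in how strongly they bind, so levels of different probes are not read as relative amounts of transcript. Levels are compared between probes only to order the probes of a gene by brightness, to sum markers and to place the DSG1 spot.

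Among the cadherins, the brightest CDH1 probe read 5.40, 6.18 and 7.97 times the 75th percentile at 30, 45 and 60 h with tetracycline, against 5.45, 5.91 and 5.61 times without. The array at 60 h with tetracycline was the highest of the 6, and the others lay between 5.40 and 6.18 times, so the arms overlap. Its log2 differences were -0.01, 0.06 and 0.51. The second CDH1 probe read 1.98, 2.50 and 3.03 times with tetracycline and 2.15, 2.26 and 2.19 times without. The dimmest read 0.138, 0.165 and 0.198 times with tetracycline and 0.159, 0.156 and 0.139 times without. All 3 probes thus had their highest value on the same array, at 60 h with tetracycline. Their differences spanned -0.20 to -0.01 at 30 h, 0.06 to 0.14 at 45 h and 0.47 to 0.51 at 60 h. The probes bind the same transcript on the same RNA, so their closeness speaks for the reading of each array and not for its repetition in another culture.

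Within the arms, CDH1 at 60 h stood 0.52 to 0.61 above 30 h with tetracycline over its 3 probes, and between -0.19 and 0.04 from it without. The mean difference over the 3 times was 0.19 ± 0.13 (SE, 3 pairs of arrays) for the brightest probe, with an adjusted p of 0.428 in limma, and it was 0.02 without the 60 h pair and 0.29 without the 30 h pair. The slope of the difference per 15 h was 0.26 ± 0.09 for that probe (limma adjusted p = 0.249), 0.29 ± 0.07 for the second and 0.36 ± 0.07 for the dimmest. Of all 28178 probes tested, 8.84% had a difference at 60 h at least as high as that of the brightest CDH1 probe.

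CTNNB1 went the other way by a smaller amount. Its brightest probe read 63.8, 65.4 and 70.1 times the 75th percentile at 30, 45 and 60 h with tetracycline and 65.9, 72.3 and 78.7 times without. Both arms were thus higher at 60 h than at 30 h, and the arms overlap. The differences were -0.05, -0.14 and -0.17. Over the 4 probes the differences spanned -0.05 to 0.02 at 30 h, -0.22 to -0.10 at 45 h and -0.25 to -0.12 at 60 h, so all 4 were below 0 at the later times.

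Each CTNNB1 probe read higher at 60 h than at 30 h in both arms, by 0.09 to 0.19 (log2) with tetracycline and by 0.26 to 0.45 without. The mean difference between the arms was -0.12 ± 0.07 (SE, 3 pairs of arrays) for the brightest probe (limma adjusted p = 0.359), and those of the other 3 probes were -0.15, -0.09 and -0.14. Of all probes tested, 25.5% had a mean difference at least as low as that of the brightest one. The contrast of 60 h with 30 h over both arms was 0.20 ± 0.08 for it (adjusted p = 0.202). All 30 h arrays lie on slide 1 and all 60 h arrays on slide 2, so time and slide cannot be told apart in that contrast except through the 45 h pair, which spans both slides.

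Among the desmosomal cadherins, DSG3 read 0.825, 1.27 and 2.69 times the 75th percentile at 30, 45 and 60 h with tetracycline, against 1.02, 0.768 and 0.612 times without. With tetracycline the later array was the higher at each step, and without it the later array was the lower. The arms therefore cross: the arm with tetracycline was the lower at 30 h and the higher at 45 and 60 h. Its differences were -0.31, 0.72 and 2.14, or 1.24-fold lower, 1.65-fold higher and 4.40-fold higher. From 30 h to 60 h DSG3 was 3.26-fold higher with tetracycline and 1.67-fold lower without.

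The slope of the DSG3 difference was 1.22 ± 0.09 per 15 h (SE, limma, unadjusted p = 0.000242, adjusted p = 0.107). Its mean difference over the times was 0.85 ± 0.48 (adjusted p = 0.353), and it was 0.21 without the 60 h pair and 1.43 without the 30 h pair. The limma adjusted p of the DSG3 slope was 0.0333 with arrays scaled by their median, 0.00228 with normexp background correction and 0.00188 with a trended and robust prior. Under these 3 settings 301, 1670 and 1831 of the 28178 probes passed, against 0 in the main fit. Under the other 5 alternatives the adjusted p for DSG3 lay between 0.0702 and 0.391. The 30 h pair lies on slide 1 and the 60 h pair on slide 2, so the differences of -0.31 and 2.14 are each within 1 slide. The DSG3 difference of 0.72 at 45 h spans both slides, so arm and slide cannot be told apart there. Of all probes tested, 0.195% had a slope and 0.206% a difference at 60 h at least as high. At 45 h the share was 1.86%.

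DSG1 could be given as bounds alone. Its second probe was not well above background on any array. On the first probe the 3 arrays with tetracycline and those at 30 and 45 h without it read 0.00338 to 0.00488 times the 75th percentile and were not well above background. The array at 60 h without tetracycline read 0.0580 times and was well above it. The reading of this probe was thus at least 2.92-fold lower with tetracycline at 60 h, on 1 pair of arrays and with no test. It rests on 1 bright spot, which the second probe on the same array does not share, so DSG1 signal and a fault of that spot cannot be told apart. Of all 43584 probes, 1.2% were well above background on that array alone, and 0.151% were so and at least as bright there.

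DSG3 and DSG1 lie in 1 cluster of 7 desmosomal cadherin genes, in the order DSG2, DSG3, DSG4, DSG1, DSC1, DSC2 and DSC3 among the protein-coding genes of the RefSeq table. Of these 7, 3 have a named probe. DSC1, desmocollin 1, was not well above background on any array. Among these 3, DSG3 thus had a level well above background on every array and DSG1 on 1, by the single spot described above. DSG2, DSG4, DSC2 and DSC3 have no named probe and could not be read.

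The keratin KRT19 read 74.9, 69.6 and 76.1 times the 75th percentile at 30, 45 and 60 h with tetracycline, against 91.0, 88.1 and 83.2 times without. Every array with tetracycline lay below every array without it. This held for 1 of the 9 tested probes of these genes, against 10.5% of all probes tested. The differences were -0.28, -0.34 and -0.13, or 1.22-, 1.27- and 1.09-fold lower. The mean difference was -0.25 ± 0.08 (SE, 3 pairs of arrays, limma, unadjusted p = 0.0280, adjusted p = 0.177). Of all probes tested, 13.8% had a mean difference at least as low.

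**Figure D1:**
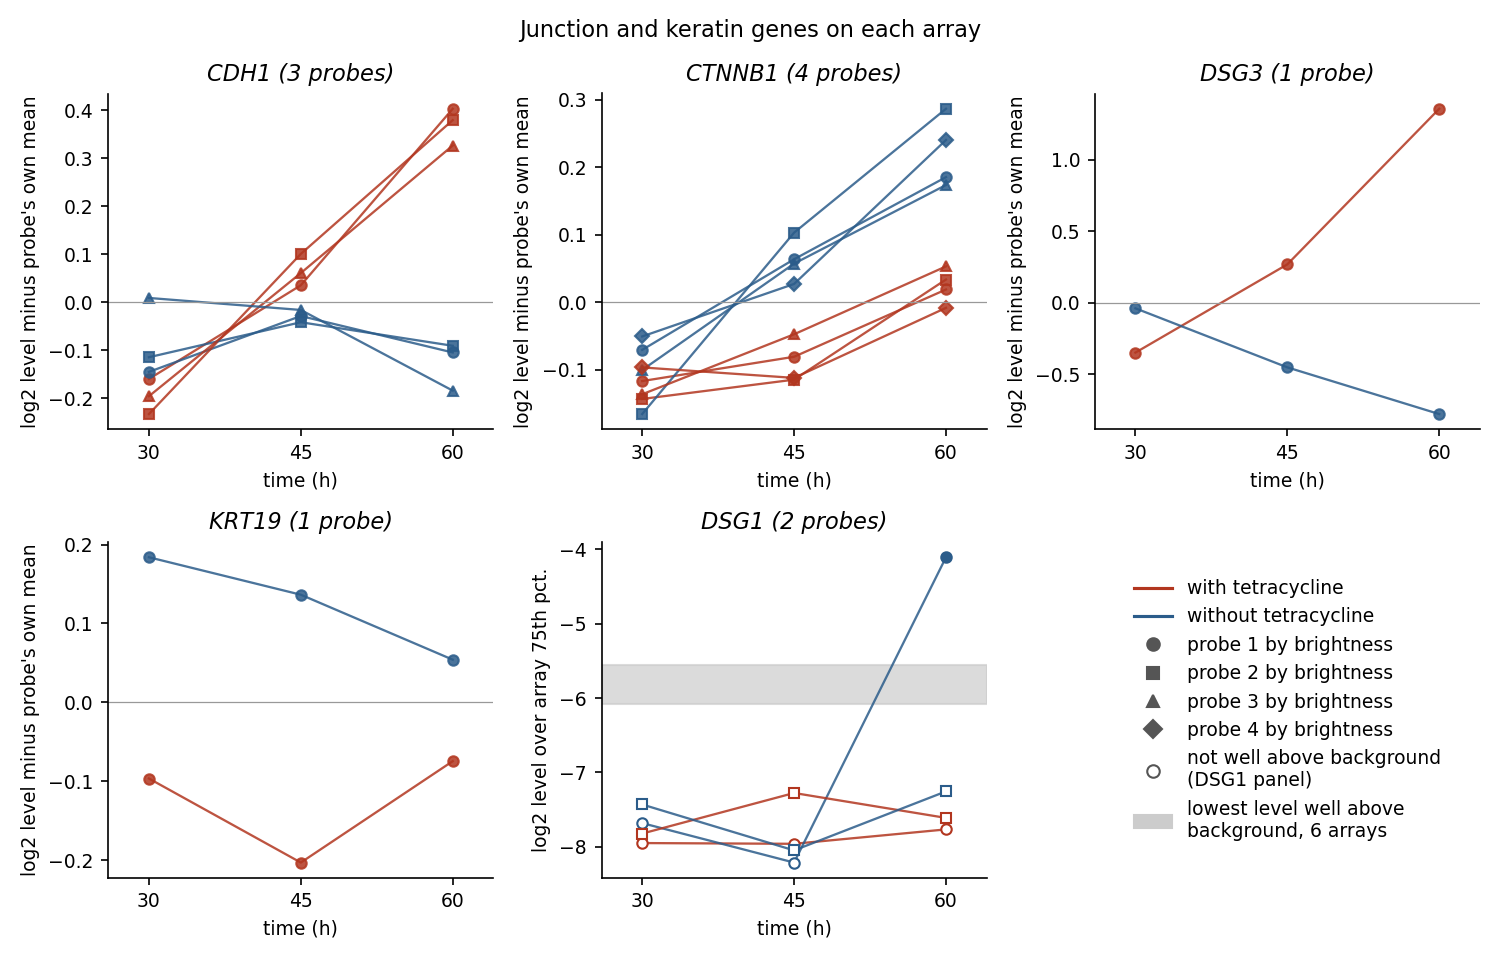
Log2 level of each probe of the 5 genes against time in hours, red with and blue without tetracycline, 1 point per array; for CDH1, CTNNB1, DSG3 and KRT19 the probe's own mean over the 6 arrays is subtracted, and for DSG1 the level is over the array's 75th percentile, with open points not well above background. The arms part upward for DSG3 and CDH1 and downward for CTNNB1, KRT19 stays lower with tetracycline, and a single DSG1 point, at 60 h without tetracycline, lies above the grey band of the lowest levels well above background.

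Of the 11 probes, the 9 of CDH1, CTNNB1, DSG3 and KRT19 were well above background on all 6 arrays, against 62.5% of all probes, and entered the test. The 2 of DSG1 did not, since a whole arm, all 3 of its arrays, had to be well above background. For the mean difference between the arms 0 of 9 passed an adjusted p of 0.05 in limma, as did 0.0% of all 28178 probes, and 1 of 9 (KRT19) had an unadjusted p under 0.05, against 23.3%. For the slope of the difference 0 of 9 passed, again against 0.0%, and 4 of 9 (CDH1 on 3 probes and DSG3) had an unadjusted p under 0.05, against 19.1%. For 60 h against 30 h over both arms 0 of 9 passed, against 8.17%, and 2 of 9 (both of CTNNB1) had an unadjusted p under 0.05, against 31.4%. The error in these tests is the spread over 3 times and not over cultures.

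The pattern by time split the probes. A difference below 0 at 30 h and above 0 at 45 and 60 h was seen for 4 of 9, namely the 3 CDH1 probes and DSG3, and for 10.8% of all probes tested. The same 4 had a higher difference at each later time, as did 23.2% of all, and the 4 CTNNB1 probes had a lower one at each later time, as did 27.7%. A difference below 0 at all 3 times was seen for 4 of 9 (KRT19 and 3 CTNNB1 probes), against 21.9%, and above 0 at all 3 for 0 of 9, against 27.7%. Since probes of 1 gene share their transcript, these counts stand for 4 genes. Against its own arm's 30 h array, the 60 h array was higher with tetracycline and lower without it for 3 of 9 (DSG3, KRT19 by 0.02 and -0.13, and the dimmest CDH1 probe), against 15.2%, and higher in both arms for the other 6, against 36.1%. A 2-fold difference at 60 h was reached by 1 of 9, DSG3, and by 4.79% of all probes.

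The size of these differences can be set beside the scatter of the measurement. Over 382 named genes with several probes, all well above background on all 6 arrays, the difference varied between probes of the same gene with a pooled SD of 0.13 at 30 h, 0.15 at 45 h and 0.19 at 60 h. The median SD within a gene was 0.05, 0.06 and 0.07. The DSG3 differences at all 3 times and those of CDH1 at 60 h exceed the pooled SD, as does 1 of 3 CDH1 probes at 30 h. KRT19 does so at 30 and 45 h but not at 60 h. Of the 4 CTNNB1 probes 0 do so at 30 h, 1 at 45 h and 2 at 60 h, the brightest at no time. Over all 28178 probes tested, the median absolute difference was 0.122, 0.163 and 0.213 at 30, 45 and 60 h. At 45 and 60 h that median is above the pooled SD, so most probes exceed it there. This scatter leaves out the spread between cultures.

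**Figure D2:**
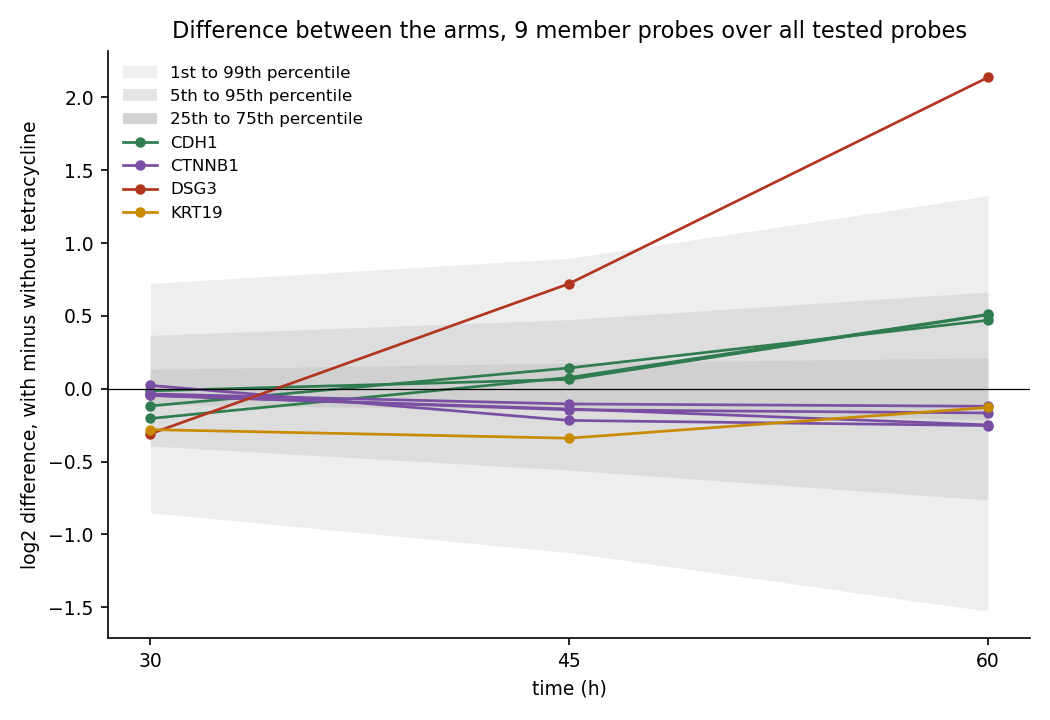
Log2 difference, with minus without tetracycline, against time in hours for the 9 tested probes of CDH1, CTNNB1, DSG3 and KRT19, over grey bands holding the central ranges of all 28178 tested probes. DSG3 leaves the band of the 1st to 99th percentile at 60 h, where that band ends at 1.32, while the CDH1, CTNNB1 and KRT19 probes stay within the 5th to 95th percentile at each time.

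The partners of these proteins were taken from gene lists, each gene led by its brightest probe. The list counts include the genes described above: CDH1 and CTNNB1 for adherens junctions, DSG3 and DSG1 for desmosomes, and KRT19 for keratins. In none of the lists did a gene pass the adjusted test for the arms or for the slope (limma). Of 33 adherens junction genes 8 have a named probe and 7 were tested. Of these 7, 3 were higher and 1 was lower at all 3 times (27.7% and 21.9% of all probes), 6 were higher at 60 h (49.7% of all probes), and the median mean difference was 0.13, against 0.01 over all probes tested. RAC1, a small GTPase of junctional actin, had differences of 0.12, 0.27 and 0.55, and N-cadherin, CDH2, had 0.02, 0.15 and 0.20. JUP encodes plakoglobin, the catenin that desmosomes and adherens junctions share, and its brightest probe had -0.02, 0.00 and 0.43. All 5 JUP probes were higher at 60 h, between 0.27 and 0.45, and lower at 30 h, between -0.14 and -0.02.

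Of 23 desmosome and cornified envelope genes 6 have a named probe and 3 were tested, with a median mean difference of 0.14, against 0.01 over all probes tested. Besides DSG3 and JUP this was TGM1, the transglutaminase that cross-links the cornified envelope, at -0.30, 0.24 and 0.23. All 3 were below 0 at 30 h and above 0 at the later times on their brightest probe, against 10.8% of all probes. For JUP this rests on a 45 h difference near 0, since 2 of its 5 probes lay just below 0 there, both at -0.01. DSC1 and PKP1, a plakophilin of stratified epithelium, were not well above background on any array.

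Of 32 keratin and other intermediate filament genes 10 have a named probe and 6 were tested, 5 of them well above background on all 6 arrays. Of these 5, 1 was higher and 2 were lower at all times (27.7% and 21.9% of all probes), with a median mean difference of -0.03, against 0.01 over all probes tested. The 2 lower ones were KRT19 and VIM, and both had an unadjusted p under 0.05 (limma), against 11.1% of all probes for that direction. The mesenchymal filament gene VIM had differences of -0.15, -0.90 and -0.96, with its second probe on the same side. KRT71, a keratin of the hair follicle's inner root sheath, entered the test through the arm without tetracycline alone, so its p is not given. It was 1.09-fold lower at 30 h. At 45 and 60 h its signal with tetracycline was too close to background for more than a bound, at least 2.74-fold and at least 1.72-fold lower. LMNA, which encodes the nuclear lamins A and C, stood on the other side at 0.03, 0.12 and 0.67. The basal keratin KRT14, one of the markers above, had -0.13, 0.15 and 0.11.

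Of 17 target genes of beta-catenin signalling 6 have a named probe and 5 were tested. Of these 5, 4 were higher and 0 lower at all times (27.7% and 21.9% of all probes). Their median mean difference was 0.28, against 0.01 over all probes tested. The cyclin gene CCND1 had differences of 0.09, 0.63 and 1.61, the adhesion receptor gene CD44 had 0.04, 0.46 and 1.27, and PPARD, a nuclear receptor, had 0.04, 0.19 and 0.60. BIRC5, the mitotic survivin gene, had 0.08, 0.26 and 0.01. The fifth, the proliferation regulator MYC, had -0.56, -0.35 and 0.68. These genes answer to many signals besides beta-catenin, and a part of beta-catenin in their differences was not tested. The CTNNB1 transcript was at -0.05, -0.14 and -0.17, and the arrays do not measure its protein. Of 30 genes of beta-catenin degradation and signalling 2 were tested, the receptor FZD6 at a mean difference of -0.05 and the ligand WNT5A at 0.00.

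Of 9 repressors of CDH1 1 was tested. SNAI2 had differences of -0.10, 0.99 and 2.60, while CDH1 on the same arrays had -0.01, 0.06 and 0.51, so both had their highest value at 60 h with tetracycline. None of 12 polarity genes has a named probe.

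**Figure D3:**
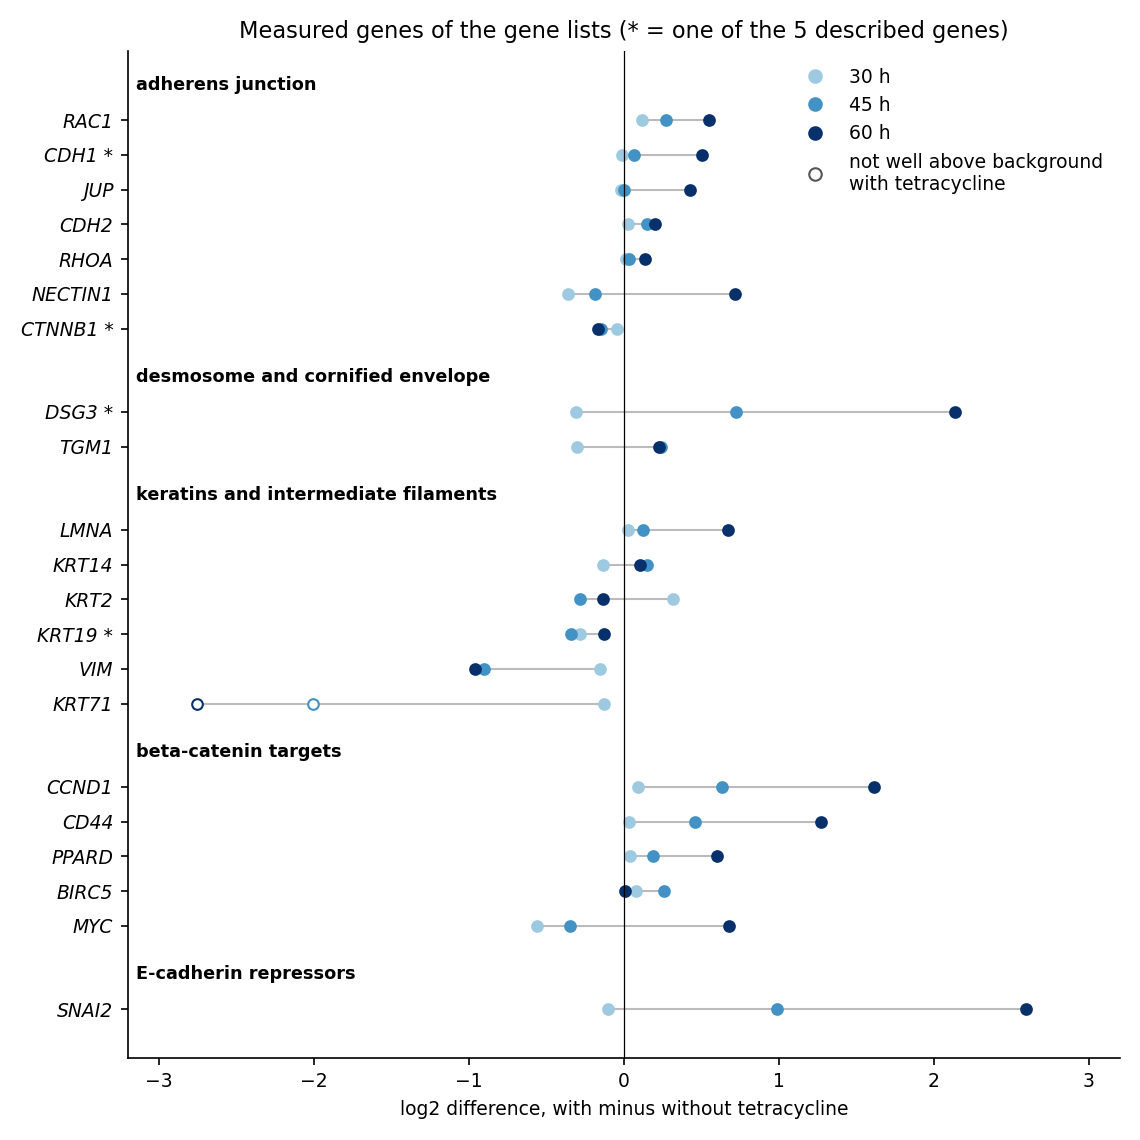
Log2 difference, with minus without tetracycline, for each tested gene of 5 lists, 1 point per time from light (30 h) to dark (60 h); open points mark times when the array with tetracycline gave no signal well above background. At 60 h DSG3 (2.14), SNAI2 (2.60), CCND1 (1.61) and CD44 (1.27) lie furthest to the right and KRT71 and VIM (-0.96) furthest to the left.

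Finally, the named genes whose profile over the 6 arrays came closest to each gene were found by the root mean square distance between log2 profiles, each centred on its own mean, among 1595 tested named probes. These are descriptions over 6 arrays that share their RNA and scaling. Nearest to DSG3 were PLAU, the urokinase gene, at a distance of 0.151, IFNK at 0.178 and SNAI2 at 0.184, where the median named probe lay at 0.708. PLAU had differences of -0.14, 0.68 and 2.63 and IFNK, an interferon gene of keratinocytes, had -0.45, 0.23 and 2.09. Nearest to CDH1 was a probe of JUP at 0.0512, followed by ADAM17, a sheddase, at 0.0701 and the lipase gene PLA2G7 at 0.0702 (median 0.250). The third ADAM17 probe differed from this pattern, at 0.16, 0.14 and -0.06.

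Nearest to KRT19 was TJP1, the tight junction scaffold gene, at a distance of 0.0303 (median 0.214). Its differences were -0.31, -0.34 and -0.13, but its second probe had -0.26, 0.11 and 0.23. NUDT3 followed at 0.0417 and RHPN2, a rhophilin gene with all 3 probes below 0 at each time, at 0.0457. Nearest to CTNNB1 were MAPK3 at 0.0175, ATOX1 at 0.0258 and XRCC1 at 0.0299 (median 0.195), and the other probes of MAPK3 and ATOX1 differed from the near one in sign at 45 h.

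**Figure D4:**
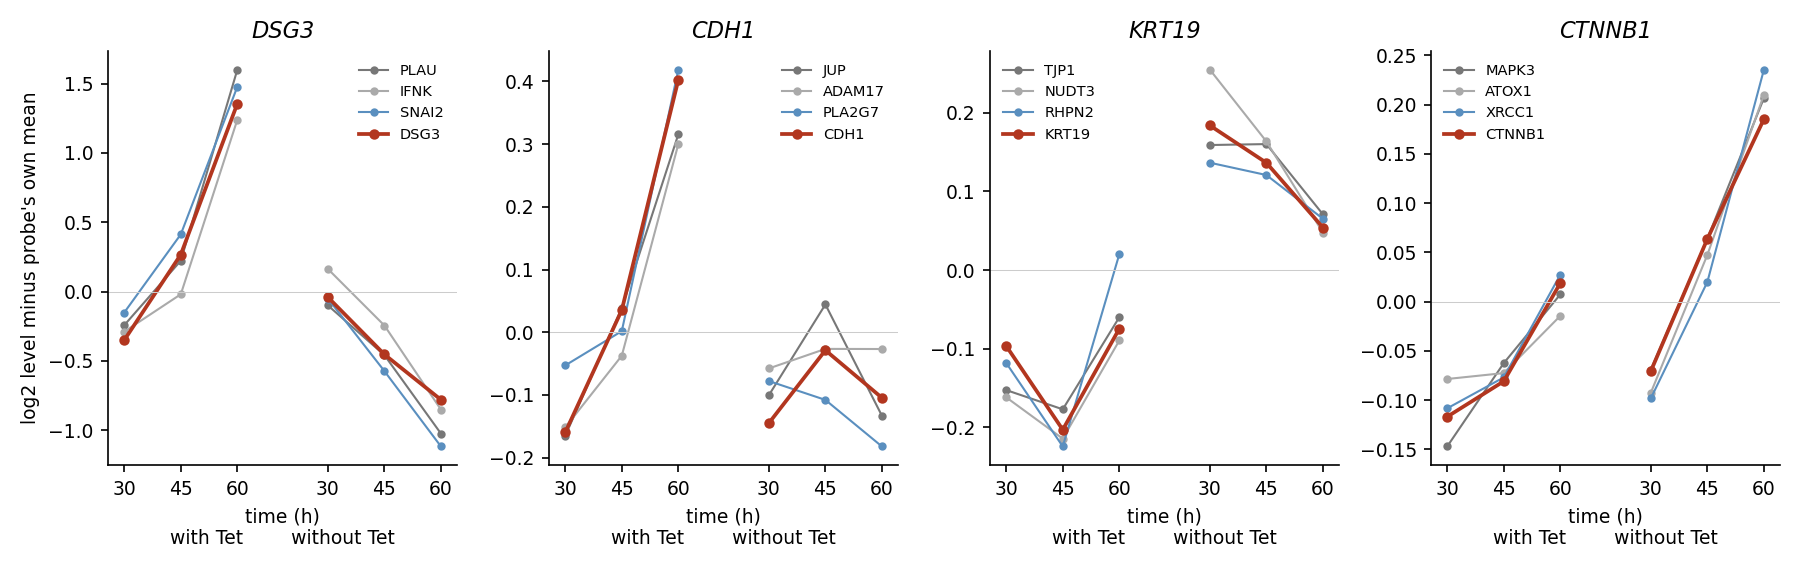
Log2 level minus the probe's own mean over 6 arrays for DSG3, CDH1, KRT19 and CTNNB1 (red) and the 3 named genes nearest to each, against time in hours, with tetracycline on the left and without it on the right of each panel. The y axes differ between panels: DSG3 and its neighbours part by more than 2 log2 units between the arms at 60 h, the others by far less.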

How the data were processed

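Spot intensity in the deposited scanner files is linear. Per the file headers, Agilent Feature Extraction 11.5.1.1 subtracted background and detrended it spatially (build CanFam3.1), without scaling the arrays to each other. The authors' deposited series matrix intensity is the same signal times 1 factor per array, 2.30 to 2.62, of unstated origin, with uncentred genes and column medians of 150.9 to 171.5. Spot flags (other) and median spot intensity are as deposited.

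Outlier spots were dropped, repeat spots averaged, and 19 of 43603 probes lost. Log2 values were set relative to each array's 75th percentile. A RefSeq table of assembly UU_Cfam_GSD_1.0 gave names, by accession without version, to 2325 probes, and gene order; no coordinates were taken from it. Every probe was a feature. limma 3.58.1 (R 4.3.3; lmFit and eBayes, Benjamini-Hochberg over 28178 probes, two-sided) had time as a block, with 2 residual degrees of freedom for the arms and 1 for the slope, and was tested on simulated data. An "at least" fold divides the bright value by the dim one or, if higher, by the faintest signal well above background on that array.

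Genes and lists were chosen with earlier results of these data known. The text names every probe of the 5 genes, up to 4 tested genes per list by size of mean difference, and the 3 nearest profiles; DSC1, PKP1, MYC, CLDN2 and COL1A1 were added after their values were seen, and some genes that this rule names are not reported here. Normexp used median spot intensity. A planned promoter search was not run. The number of arrays limits precision, and p-values cover the spread over times alone.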

Additional observations from a re-analysis of the deposited data

How the results depend on the processing

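The arm count of 0 was 144 with normexp, 20 with a prior both trended and robust, 21 without a time term and 0 to 1 when the arrays of 1 time were left out (1 without the 30 h pair). The slope count of 0 was 301 with median scaling, 1670 with normexp, 1831 with the trended prior and 2 among probes detected on all 6 arrays. The time count of 2302 was 4173 with normexp and 3842 with the trended prior, and 0 with no detection filter, with the slide as a term, or without the 45 h pair, the 1 pair that could be left out there. The cause of these shifts was not tested. Over 124 values of CDH1, CTNNB1, DSG3 and KRT19 under the alternatives, 120 kept direction and side of the threshold. Many could not have changed direction, since the deposited values, the probe filters and the prior leave the estimates as they are. For the arms, the slide term gave the same values as leaving out the 45 h pair. As none passed in the main fit, staying short of the threshold counted as kept. The 120 are thus not independent checks. DSG3's slope passed under 3 of 8 (adjusted p 0.0333, 0.00228 and 0.00188, at 1.26, 1.14 and 1.22 per 15 h), and KRT19's 60 h minus 30 h of -0.05 turned to 0.0812 with the slide as a term. The mean differences of DSG3 and CDH1 without the 30 h or 60 h pair are given above. Without the 45 h pair they were 0.91 and 0.25. No time left out moved the mean difference of CTNNB1 (-0.12) or KRT19 (-0.25) by over 1.5 times. The slope could not be refitted without a time or with the slide, as no residual degree of freedom was left. The arms were paired by time in the fit itself, and the labels give no replicate numbers to pair by. DSG1 is limited by its signal at background.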

Other observations

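Genes of cadherin shedding and turnover were covered by 5 tested of 11, with 2 higher and 2 lower at all 3 times (27.7% and 21.9% of all probes) and a median mean difference of 0.07, against 0.01 over all probes tested. None passed the adjusted test for the arms (limma, adjusted p between 0.114 and 0.720; 1 higher and 1 lower with an unadjusted p under 0.05, against 12.1% and 11.1% of all probes). The gelatinase MMP9 had differences of -1.38, -3.12 and -2.09 at 30, 45 and 60 h, with minus without tetracycline. The small GTPases of endosomal traffic stood on the other side, RAB5A at 0.19, 0.13 and 0.25 and RAB11A, of recycling endosomes, at 0.00, 0.16 and 0.36, so that RAB11A was level between the arms at 30 h.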
